A study of Mus musculus with 6 samples.

Results

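In C2C12 cells, 887 YTHDC1 binding peaks lay in the 5' untranslated region (5'UTR) of a protein-coding transcript. They are the replicate 1 peaks that share 1 nt or more with a same-strand peak of replicate 2 and whose centre falls in the 5'UTR of a coding transcript of a GENCODE vM1 protein-coding gene, in the orientation of its RNA, and in no annotated coding sequence (CDS) or 3'UTR on either strand. They make up 3.05% of the 29087 peaks shared by both C2C12 replicates (95% Clopper-Pearson interval 2.85 to 3.25%) and 6.97% of the 12733 shared peaks in mRNA exons, next to 8092 in the CDS and 3754 in the 3'UTR. They fall in 604 of the 3538 protein-coding genes that have a shared exonic peak, which is 17.1% of them. Peak calling treated each library on its own, and the complete lists held 1834 such peaks among 60540 in replicate 1 and 1900 among 71992 in replicate 2.

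YTHDC1 is the nuclear reader of N6-methyladenosine (m6A), a methyl mark that is placed on adenosines of nascent mRNA, mostly within a sequence with a GAC core, and that is known to be densest around stop codons and in the 3'UTR. The 5'UTR lies between the cap and the start codon. There the small ribosomal subunit loads and scans, and upstream open reading frames (uORFs), iron-responsive elements, other stem loops and pyrimidine tracts next to the cap are known to control how often an mRNA is translated.

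YTHDC1 binding was mapped with LACE-seq, in which UV light crosslinks the protein to RNA, the complexes are immunoprecipitated, and reverse transcription of the RNA fragments stops where the protein was attached. The libraries analysed here were 2 from C2C12, an established mouse myoblast line kept in serum-containing growth medium, and 4 from ASC-48h, mouse muscle satellite cells activated by 48 hr in culture (2 biological replicates with 2 technical replicates each). Both kinds of cell were wild type and untreated beyond crosslinking. The paper sorted its satellite cells by a GFP or EYFP reporter that the mice carried, so wild type does not mean free of transgenes there. All 6 libraries were made after 400 mJ of UV with the same YTHDC1 antibody, and no input or control library was analysed, so the peaks measure recovery with that antibody and not a difference between conditions. The C2C12 libraries carry biological replicate numbers in their labels while the study's text speaks of technical replicates, so they are called replicates 1 and 2 here and the spread between them may be technical.

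The reads listed in peaks summed to 523067 in replicate 1 and 607366 in replicate 2 of C2C12, and to 57953 up to 111729 in the ASC-48h libraries. Library totals cannot be had from peak lists. Of 8 skeletal myoblast markers, 6 had a shared C2C12 peak on the strand of their RNA (Cdh15, Chrna1, Des, Itga7, Mef2d and Myf5, but not Myod1 or Myog), against 1 of 7 markers of other cells (Pecam1). In mRNA exons, 6 of the 8 and 0 of the 7 had a shared peak, beside 3538 of the 22380 annotated protein-coding genes. The lists are short, so these counts do not settle cell identity. Reads of these libraries run opposite to the RNA, and 92.9% of the shared peaks that lay in a 5'UTR on either strand had this orientation, against 98.4% in the CDS and 97.8% in the 3'UTR. Of the 68 shared 5'UTR peaks in the orientation of the gene, 51 fell in 1 cluster of 12 interferon-like genes whose sequences repeat. Without that cluster the share was 98.1%. A peak that lies in 5'UTRs of both strands is counted in both orientations in these shares.

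The sequences at 9 of the 10 highest members, at the 2 highest in genes on the minus strand, at the highest of Mbnl1 and at the member of Myc show what the reads sat on. Each run is 30 nt of the mm9 genome on the strand of the RNA and holds a 20-nt bin of the peak together with the 10 nt beside it on the side of higher coordinates. Capitals mark TGCC and CCGT, the 4-letter words most enriched at the members over all equally long windows in the 5'UTRs of the same genes.
Fam120b, chr17:15533361-15533390, plus strand: tcaagtccactatcctcgCCGTggccacgc
Arsj, chr3:126067401-126067430, plus strand: tttcctgcaagcTGCCgggtgatgttagga
Rbbp6, chr7:130114121-130114150, plus strand: taacgtgtggactgaccgctactgactgca
Igsf3, chr3:101182161-101182190, plus strand: tctattgcacacgccacgccactcccctcc
Cebpb, chr2:167514461-167514490, plus strand: cgcgccgagtccgagccgcgcacgggaccg
Cnn3, chr3:121129541-121129570, plus strand: tcatccgcgtCCGTctgcggcgttcgggct
Gm10116, chr13:74543841-74543870, plus strand: ttaggagcagcgccttggaggtcCCGTgga
Vim, chr2:13495981-13496010, plus strand: tacgattcacagccaccgcgccctcattcc
Smcr8, chr11:60591441-60591470, plus strand: ttttcgcatccagaggcctgactctccctc
Npm1, chr11:33063041-33063070, minus strand: cgtgattCCGTcctgcgcgtctgttctgtg
Eef1a1, chr9:78329441-78329470, minus strand: caacgggttTGCCGTcagaacgcaggtgag
Mbnl1, chr3:60332841-60332870, plus strand: ctctgagtatcTGCCatTGCCctaggctgc
Myc, chr15:61817221-61817250, plus strand: gcttTGCCtccgagccTGCCgcccactctc

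The highest member lay in Fam120b, which encodes a nuclear receptor coactivator, 161 nt from the transcript start, and held 27 reads per bin in replicate 1 and 22 in replicate 2. The arylsulfatase gene Arsj followed with 24 in each replicate. Rbbp6, a ubiquitin ligase tied to pre-mRNA 3' processing, had 24 and 23. These 3 lay within 1 read of each other by the mean of both replicates, while the replicates of Fam120b differed by more than that, so their order is not resolved. The immunoglobulin superfamily gene Igsf3 had 23 reads per bin in both replicates. The transcription factor Cebpb and the actin-binding calponin Cnn3 each had 25 and 19. Vimentin (Vim) and the predicted gene Gm10116 each had 26 and 17, and the autophagy factor Smcr8 had 17 and 23. All 9 of these peaks lay in genes on the plus strand of the genome.

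Most members were small. Over the 887, reads per bin ran from 6 to 27 in each replicate with a median of 8, and 696 (78.5%) differed by at most 3 reads between the replicates. Across the members, which are not independent replicates and were chosen for being called in both libraries, Pearson's r of log2 reads was 0.51 and Spearman's rho 0.42. The largest difference was 20 reads. At least 10 reads per bin in both replicates were found at 150 members.

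Height and number both differed with the strand of the gene. Genes on the plus strand held 547 members (61.7%, interval 58.4 to 64.9%), while 49.9% of the annotated protein-coding genes lie on that strand. Their members had a mean of 9.71 reads per bin in replicate 1 and 9.64 in replicate 2, with a highest value of 27 in each. The 340 members in genes on the minus strand had means of 8.04 and 8.07, with highest values of 20 and 17. CDS peaks, at 58.1% in plus-strand genes, and 3'UTR peaks, at 59.0%, showed the same imbalance and nearly the same means on each strand, so it was not particular to the 5'UTR. What sets the strands apart was not tested.

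**Figure D1:**
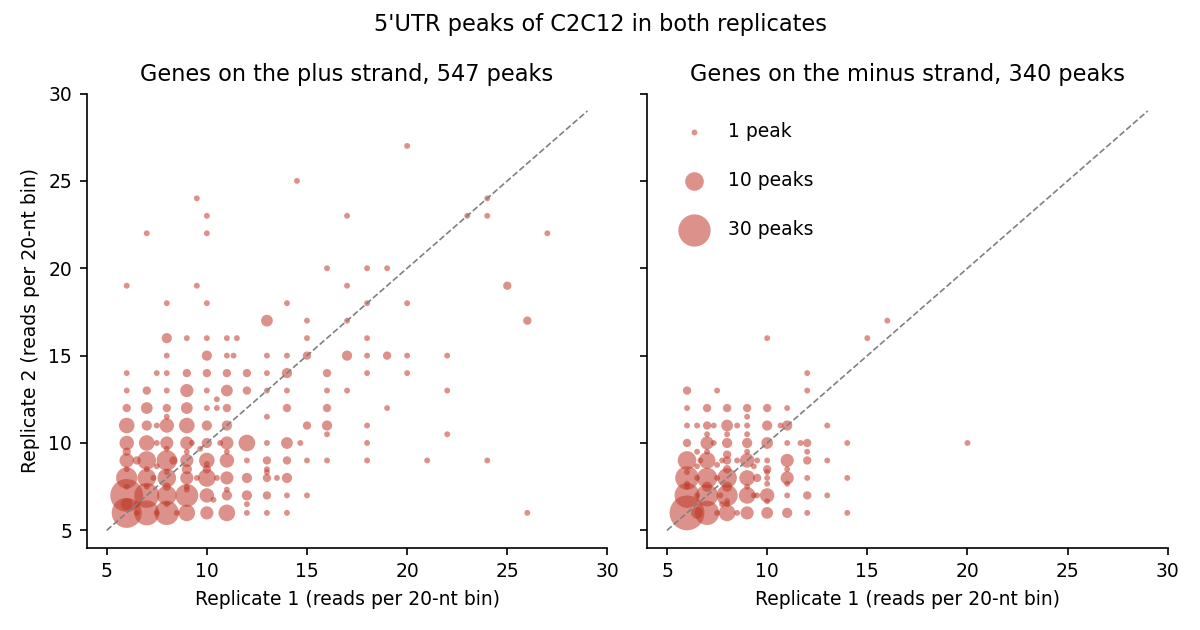
Reads per 20-nt bin of each 5'UTR peak of C2C12 in replicate 1 (x axis) against replicate 2 (y axis), for genes on the plus strand (547 peaks, left) and on the minus strand (340 peaks, right); the area of a point gives the number of peaks and the dashed line marks equal values. Values reach 27 reads on the plus strand, and the highest mean of both replicates on the minus strand is 16.5.

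Among minus-strand genes the highest member was in Npm1, a nucleolar chaperone, with 16 reads per bin in replicate 1 and 17 in replicate 2. Eef1a1, a translation elongation factor, followed with 15 and 16. The member of Gm10925 with 20 and 10 reads had a 20-nt sequence that also occurs in the mitochondrial genome, the single member of which this was true.

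Binding was spread over several sites in some 5'UTRs. Of the 604 genes, 446 had 1 member, 93 had 2 and 65 had at least 3. Neighbouring members of a gene lay a median of 120 nt apart, and peaks of 1 transcript share its RNA and are not independent. Smad7, which encodes an inhibitor of TGF-beta signalling, had the most, with 10 members between 228 and 1408 nt from the transcript start of a 5'UTR of 1427 nt. Its strongest peak had 13 reads per bin in replicate 1 and 17 in replicate 2, and the second 18 and 9, so the order of these peaks is within the difference between replicates. The same gene had 3 CDS peaks and 1 3'UTR peak.

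Igfbp5, an insulin-like growth factor binding protein, had 8 members from 117 to 717 nt, with means of both replicates from 6.5 to 10.5 reads per bin. Most of its exonic peaks lay elsewhere, with 35 in the 3'UTR. Ext1, a polymerase of heparan sulfate, also had 8, beside 13 peaks in the CDS. The splicing regulator Mbnl1 had 7 members with a mean of 12.96 reads per bin, the highest mean among the 9 genes with most members. Its best 3 had 20 and 15, 10 and 22, and 16 and 14 reads in replicates 1 and 2, which again overlap. The leucine zipper gene Tsc22d1 had 7 members, of which the highest, with 16 and 12 reads, lay 3 nt from a transcript start. The corepressor Tle3, the ubiquitin ligase Msl2 and the transcription factor Runx1 had 6 each. Their highest members had 9 and 14, 10 and 15, and 8 and 9.33 reads in replicates 1 and 2, and the 6 of Runx1 were spread from 162 to 1382 nt of a 5'UTR of 1575 nt.

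Luc7l2, a U1 snRNP-associated protein, was among the genes with 5. It had its 2 highest members, with 14 and 14 and with 10 and 18 reads, at 106 and 186 nt. Gsk3b, a kinase of Wnt and insulin signalling named here after its values were seen, had 5 members and neither a CDS nor a 3'UTR peak. In all, 142 of the 604 genes (23.5%) had exonic peaks in the 5'UTR alone, 409 also had a CDS peak and 291 a 3'UTR peak.

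**Figure D2:**
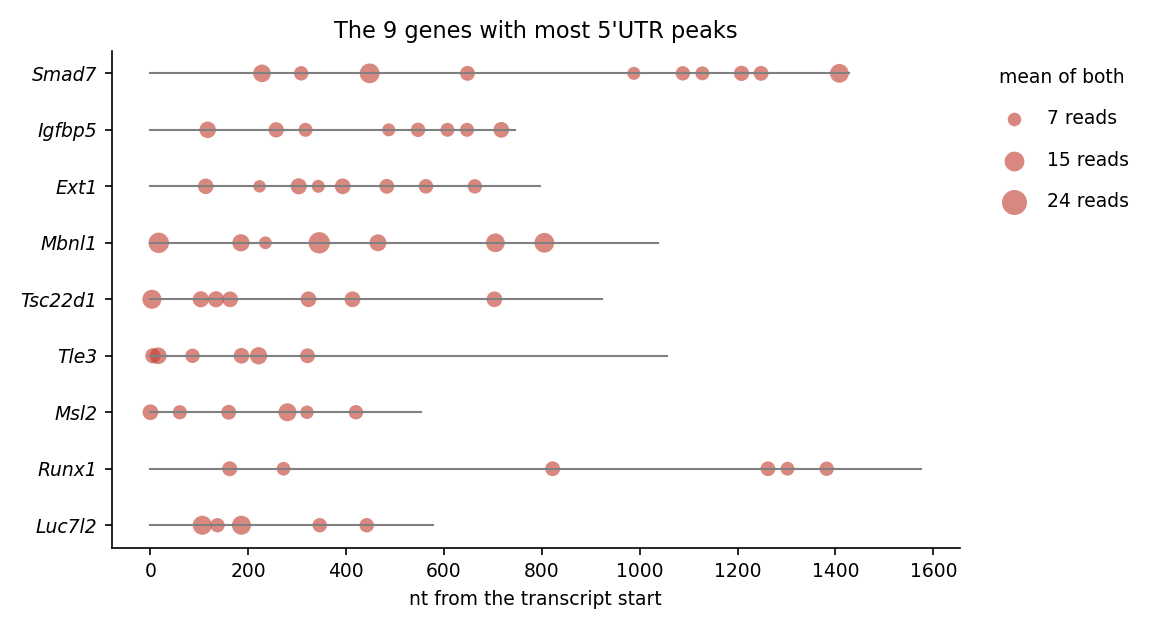
Position of the 5'UTR peaks (points) in the 9 genes with most of them (ties by mean reads per bin), in nt from the transcript start; the area of a point gives the mean reads per bin of both replicates and the grey line the longest 5'UTR of the transcripts used. The points of Smad7 run from 228 to 1408 nt, and the largest point of Mbnl1 is at 345 nt with a mean of 17.5 reads.

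Several groups of mRNAs known for regulation through the 5'UTR held members. Their counts stand beside the 17.1% of all genes with an exonic peak that had a 5'UTR peak. The groups are small, and members come from genes with long 5'UTRs, so nothing particular to a group is read from its share. Median 5'UTR length on the transcript with the longest CDS was 314 nt in the genes with a member, 195 nt in all genes with a shared exonic peak and 149 nt in all protein-coding genes.

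Of mRNAs with a known uORF, 3 of 10 with an exonic peak had a member. Cebpb, whose uORF sets the choice between protein isoforms, had the peak with 25 and 19 reads, 56 nt from the start and 51 nt before the start codon. Ppp1r15b, a phosphatase subunit that acts on a translation initiation factor, had 2 members, of which the higher had 9.5 reads per bin in replicate 1 and 19 in replicate 2. Amd1, an enzyme of polyamine synthesis, had 1 member with 7 reads in each replicate, and its 20-nt sequence occurs 4 times in the genome. Atf4, Azin1, Cebpa, Ddit3, Ifrd1, Mdm2 and Slc35a4 had exonic peaks but none in the 5'UTR.

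Of mRNAs with an iron-responsive element in the 5'UTR, 2 of 3 with an exonic peak had members, Fth1 and Ftl1, the ferritin heavy and light chains. Fth1 had 1 peak with 18 reads in each replicate, centred 58 nt from the transcript start, and another with 16 and 12 at 118 nt. CAGTG, the loop letters of the iron-responsive element, begin 17 nt before the centre of the first peak, in capitals here.
Fth1 loop, chr19:10057222-10057251, plus strand: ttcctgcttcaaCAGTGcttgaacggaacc
The same 5 letters were found in 4.51% of the members' 60-nt windows and in 5.60% of all such windows in the 5'UTRs of the member genes, so this match is a feature of Fth1 and not of the members. The Ftl1 member, with 11.7 and 10.0 reads per bin, is centred 203 nt from the start and has a 20-nt sequence that occurs 3 times in the genome.

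Members were held by 2 of the 3 collagen mRNAs known for a stem loop around the start codon. Col1a2 had 3, at 218, 258 and 318 nt from the start, with 10 and 12, 11 and 13, and 6 and 10 reads in replicates 1 and 2. Col3a1 had 1 with 7 and 10 reads. Col1a1 had exonic peaks outside the 5'UTR.

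Growth regulators with long, structured 5'UTRs had members in 5 of 8 genes with an exonic peak. These were Bcl2, an inhibitor of apoptosis, Jun and Myc, transcription factors of the early growth response, and the growth factors Tgfb1 and Vegfa. Tgfb1 had 13 and 10 reads at 170 nt, and Bcl2 had its highest member, 11 and 12 reads, 1220 nt from the start of a 5'UTR of 1394 nt. Myc had 1 member with 9 and 10 reads. The members of these 5 genes had means of 6.75 to 11.5 reads per bin, below the 10 highest members.

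The mRNAs with a 5' terminal pyrimidine tract, which encode ribosomal proteins and translation factors, had members in 14 of 64 genes with an exonic peak (21.9%). Eef2, a translation elongation factor, had 14.5 and 25 reads 25 nt from the start. Rps24 had 17 in each replicate, 48 nt from the start, at a sequence that occurs 2 times in the genome. Vim, counted in this group, had 3 members, and the others, with 21 and 9 and with 15 and 17 reads, lay within 60 nt of the highest one. Sequences of ribosomal protein genes have many processed copies, and each read was placed at up to 10 positions, so reads at such members may come from another copy.

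Of the heat shock mRNAs, 3 of 6 with an exonic peak had a member (Hsp90aa1, Hsp90ab1 and Hspa5), with means of 7.5, 9.0 and 8.0 reads. Of the myogenic genes, 2 of 4 with an exonic peak had a member, and that of Myf5 had 6 reads in each replicate, the lowest value in the C2C12 lists. Of the matrix and cytoskeleton genes 7 of 12 had members (Actb, Actg1, Ctgf, Lox, Sparc, Thbs1 and Tpm4). Lox, which encodes the enzyme that crosslinks collagen and elastin, had 4. SR splicing factors had members in 2 of 6 genes (Srsf1 and Tra2a). None of the 8 genes of the m6A machinery that had an exonic peak held one in the 5'UTR. Among genes with a LACE-seq track in the study, Phlda3 had members, with 9 and 6 reads and with 8 and 6.

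Members lay deeper in the 5'UTR than its nucleotides do. Their centres were a median of 203 nt from the transcript start and 147 nt before the start codon. Within 100 nt of the start lay 240 members (27.1%, interval 24.2 to 30.1%), while 34.3% of the eligible nucleotides of the same 5'UTRs lie there. Shares of nucleotides in this and the next paragraph were taken in each member's transcript and averaged over the members. Within 100 nt of the start codon lay 39.2% (36.0 to 42.5%) against 33.8% of nucleotides. Divided into 5 equal parts from the start, the 5'UTR held 14.1, 17.8, 18.9, 25.4 and 23.8% of the members, against 19.4 to 20.4% of nucleotides. Peaks within a gene are not independent, so these intervals are too narrow.

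The strand of the gene entered here as well. Within the first 20 nt lay 7.50% of the members of plus-strand genes, next to 8.56% of nucleotides, and 1.76% of those of minus-strand genes, next to 7.15%. Within 100 nt of the start the shares were 30.2% against 35.9% of nucleotides in plus-strand genes and 22.1% against 31.5% in minus-strand genes. The excess in the part before the last rested on minus-strand genes, with 31.8% (26.8 to 37.0%) of their members there against 21.4% (18.0 to 25.1%) in plus-strand genes. The excess near the start codon had the same direction on both strands, 40.4% against 35.4% and 37.4% against 31.2%. The 133 members with a Piranha p of at most 0.00001 in both replicates did not lie away from the start, with 39.1% of them within 100 nt against 39.3% of nucleotides. The first exon held 85.7% of members and 87.6% of nucleotides.

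**Figure D3:**
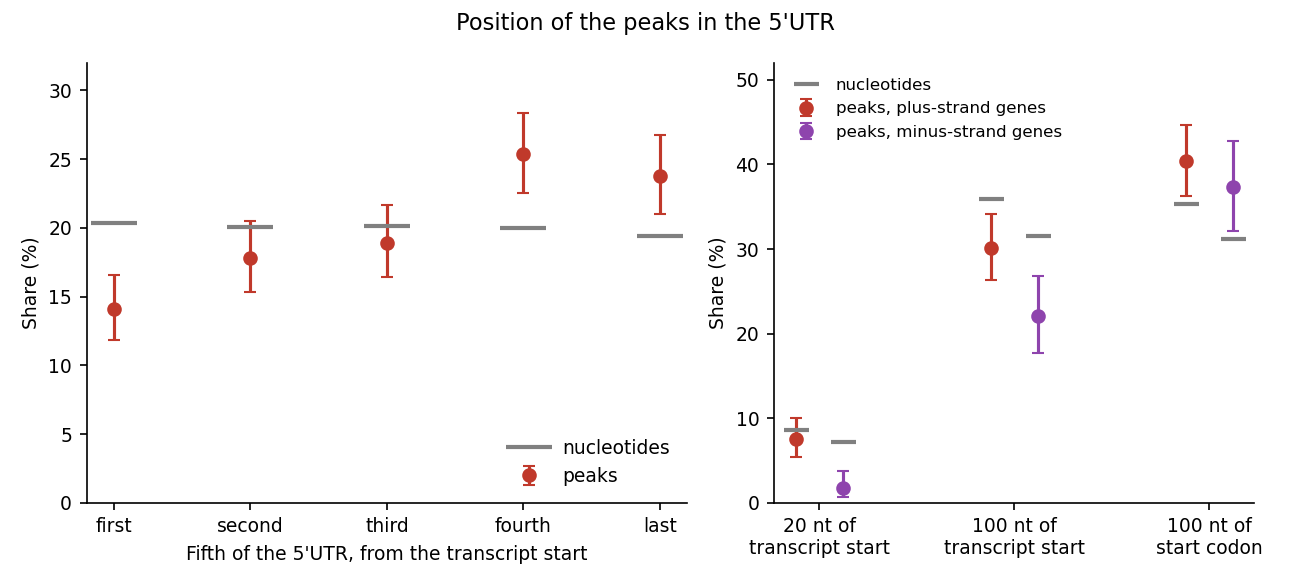
Share of the 5'UTR peaks (points, with 95% Clopper-Pearson intervals) in 5 equal parts of the 5'UTR from the transcript start (left) and near the transcript start or start codon for genes on either strand (right). Grey dashes give the share of eligible 5'UTR nucleotides of the same transcripts, averaged over the peaks. The part next to the start holds 14.1% of the peaks and the part before the last 25.4%.

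The sequences of the members of 1 bin, 769 of the 887, were rich in C and poor in A on 1 side of the centre. All shares of bases in this paragraph, also those of the CDS and 3'UTR, are over peaks of 1 bin. In plus-strand genes the 20 nt after the centre, read along the RNA, held 39.2% C and 12.3% A, against 31.2% C and 17.5% A more than 50 nt away. In minus-strand genes it was the 20 nt before the centre, with 39.3% C and 11.4% A against 30.7 and 17.7%. On both strands this is the side of higher genome coordinates. CDS and 3'UTR peaks had the same one-sided stretch from lower levels of C, for example 34.4% C against 27.2% far away in the CDS of plus-strand genes, so it was not particular to the 5'UTR. The sources used here do not give which end of a read was counted in the bins, and the part of that choice in the shift was not tested.

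Short words followed the same side. Among all 4-letter words in the 30-nt windows described with the sequences, CCGT was found at 17.6% of the members against 7.74% of all windows in the same 5'UTRs, and TGCC at 31.0% against 14.0%. Both were chosen, after their values were seen, as the words with the highest ratio, so these are descriptions. CCGT was at 16.5% of members in plus-strand and 19.4% in minus-strand genes, and TGCC at 173 of 547 and 102 of 340. TGCC was at 34.0% of CDS peaks and 36.0% of 3'UTR peaks too, where windows 100 nt to either side held it at 15.6 and 16.2% and at 14.3 and 14.3%. For the members these flanking windows gave 13.5 and 15.9%. CCGT was raised in the other regions as well, so neither word was particular to the 5'UTR. It was at 11.9% of CDS peaks, with 5.00 and 5.33% in the flanking windows. In the 3'UTR it was at 8.36% of peaks, with 3.33 and 3.36% beside them. The members' flanking windows held CCGT at 8.12 and 9.36%. Of the 13 members printed above, 8 hold at least 1 of these words in capitals. The other 5, Rbbp6, Igsf3, Cebpb, Vim and Smcr8, are all among the 10 highest.

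GGAC, the core of the m6A consensus, was not raised. It was found in 202 of 886 members' 60-nt windows (22.8%, interval 20.1 to 25.7%) on the strand of the RNA, against 25.3% of all 60-nt windows in the 5'UTRs of the same genes, 22.9% of CDS peaks and 18.7% of 3'UTR peaks. In the 30-nt windows it stood at 10.1% of the members (8.24 to 12.3%), below the 14.1 and 13.2% found 100 nt to either side. GGACT was at 7.22% of members and 7.21% of all windows. A match is not a methylated site, and the absence of these letters from a window says nothing about YTHDC1 itself. An ATG, a possible uORF start, was in 30.2% of members' windows against 32.6% of all, and a G-quadruplex motif (4 runs of at least 3 G with up to 7 nt between them) in 1 of 886 against 1.76%.

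**Figure D4:**
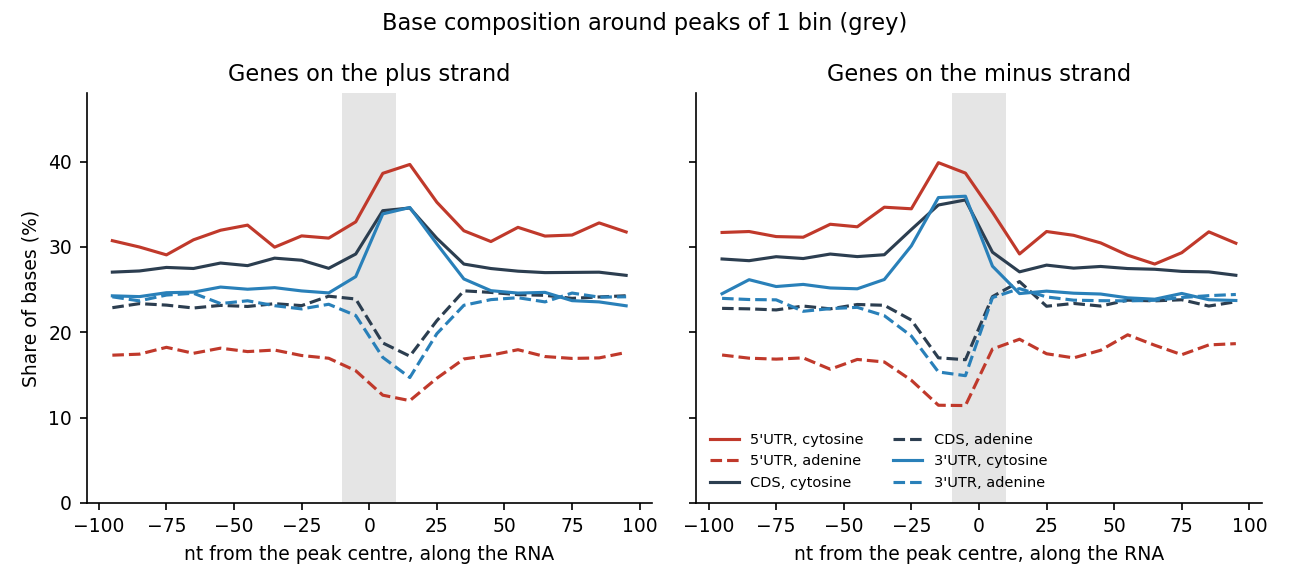
Share of cytosine (solid) and adenine (dashed) in steps of 10 nt along the RNA around peaks of 1 bin (grey band) in the 5'UTR, CDS and 3'UTR, for genes on the plus strand (left) and the minus strand (right). The cytosine-rich, adenine-poor stretch of the 5'UTR peaks, 39.2% and 12.3% over 20 nt in plus-strand genes, follows the centre on the left and precedes it on the right.

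GC content followed the region. The median over the members' 60-nt windows was 63.3%, against 61.7% for all windows in the same 5'UTRs, 56.7% for CDS peaks and 53.3% for 3'UTR peaks. The middle part of the members, from the lower to the upper quartile, ran from 55.0 to 71.7%.

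Set beside CDS and 3'UTR peaks, members were close in height. Mean reads per bin over both replicates were 9.05 in the 5'UTR, 8.97 in the CDS and 8.86 in the 3'UTR, while single peaks of the 5'UTR spread with an SD of 2.92. Within the 409 genes that had both, the mean of the 5'UTR peaks was higher than that of the CDS peaks in 186 and lower in 216 (46.3% higher without ties, interval 41.3 to 51.3%). In the 291 genes with 3'UTR peaks it was higher in 125 and lower in 160 (43.9%, 38.0 to 49.8%), and here the direction turned with the strand, with 39.0% higher (31.9 to 46.5%) in plus-strand and 52.4% (42.4 to 62.4%) in minus-strand genes. The median log2 ratios were -0.03 and -0.05, both small beside the difference between replicates at single peaks.

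How often a peak was found again can be described only for the complete lists, since every member was chosen for it. Of all 1834 replicate 1 peaks in 5'UTRs 48.4% (46.1 to 50.7%) overlapped a replicate 2 peak, beside 48% of all replicate 1 peaks, the overlap that the rule itself uses. In the CDS this was 49.8% and in the 3'UTR 47.8%. In the other direction 46.9% of 5'UTR peaks were found again, beside 49.7% in the CDS, 47.6% in the 3'UTR and 40.4% of all replicate 2 peaks. The share was larger for higher peaks in each region. Of 5'UTR peaks under 10 reads per bin, 41.2% of replicate 1 were found in replicate 2, of those with 10 to 19 reads 76.1%, and of those with 20 or more 19 of 20. The CDS gave 42.6, 79.0 and 97.8%.

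Peaks were sparser in 5'UTRs than in the CDS of the same genes. Over 3330 genes with all 3 regions annotated the shared peaks came to 0.681 per kb of 5'UTR, 0.993 per kb of CDS and 0.591 per kb of 3'UTR. Peaks and lengths were each summed over these genes, which were chosen for holding a shared exonic peak. The level of each mRNA, which these files do not hold, is thus not removed gene by gene. The 5'UTR to CDS ratio was 0.686, and 0.685 and 0.712 in the complete lists of replicates 1 and 2. Against the 3'UTR it was 1.153, with 1.14 and 1.17 in the lists. These lengths join the exons of all coding transcripts of a gene, and with 1 transcript per gene the ratio to the CDS rose to 0.883 and that to the 3'UTR to 1.33, with unchanged direction.

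**Figure D5:**
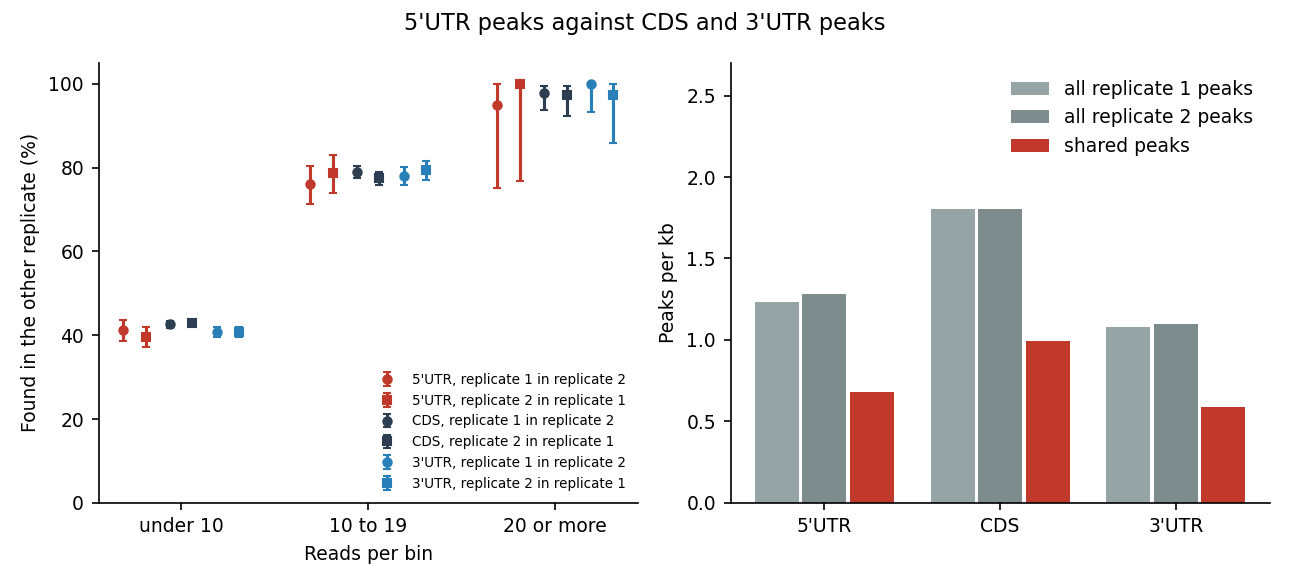
Left, share of peaks of 1 C2C12 replicate found in the other (circles, replicate 1 in 2; squares, replicate 2 in 1; bars, 95% Clopper-Pearson intervals) by reads per bin, for 5'UTR, CDS and 3'UTR; right, peaks per kb of each region over 3330 genes for the complete lists and the shared peaks. The 5'UTR shares of 41.2 and 76.1% lie near those of the CDS, while its 0.681 shared peaks per kb lie between CDS and 3'UTR.

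Few members were seen in satellite cells. Of the 887, 2 (0.225%, interval 0.0273 to 0.812%) overlapped a shared ASC-48h peak, beside 5.23% of all shared C2C12 peaks, 0.297% of CDS peaks and 0.213% of 3'UTR peaks. A shared ASC-48h peak had to be called in both technical replicates of each biological replicate, so in all 4 libraries. The first was in the annotated 5'UTR of the predicted gene Gm10076, with 10 and 15 reads in C2C12 and 5, 5, 8 and 5 in the 4 ASC-48h libraries. The other was in that of Ndufs7, which encodes a subunit of mitochondrial complex I, with 8 and 10 reads in C2C12. In the 3 ASC-48h libraries whose own peaks overlapped this member it had 12, 16 and 5.33. Overlap with transfer RNA genes was not checked, so which RNA gave the Ndufs7 reads is not settled. A peak of at least 1 ASC-48h library overlapped 84 members (9.47%, 7.62 to 11.6%), beside 14.5% of all shared C2C12 peaks, 7.71% of CDS peaks and 2.24% of 3'UTR peaks. The 4 libraries overlapped 5, 36, 26 and 46 members, in the order of biological replicate 1 and then 2. Those members included Eef2, found in 3 of the libraries at 6, 8 and 7 reads per bin. These came from both biological replicates, but Eef2 is not among the 2 above because the fourth library lacked the peak. The ASC-48h lists hold fewer reads in peaks, so a member without an ASC-48h peak is not shown to be unbound there, and cell type and depth cannot be told apart.

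Annotation and copies limit what a single member shows. The 20-nt sequence at the centre occurred once in the genome for 796 members (89.7%), against 81.4% of CDS and 87.2% of 3'UTR peaks, and more than 10 times for 14. On the transcript with the longest CDS of the gene 754 members stayed in the 5'UTR, 57 fell in an intron and 76 lay upstream of its start. A gene on the other strand covered 68 members, among them Cebpb. In small RNA genes of the types checked (small nuclear, small nucleolar, micro, ribosomal and miscellaneous RNA, not transfer RNA) lay 3. These were a member of Grcc10 in a U7 gene, with 6 and 12 reads, and members of Ddx39b and 2410002F23Rik in the small nucleolar RNA genes SNORD83 and SNORD88, with 11 and 6 and with 7 and 8.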

How the data were processed

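YTHDC1 LACE-seq peaks of 2 C2C12 and 4 ASC-48h mouse libraries were analysed, with groups taken from the sample labels. Per the study's methods and the labels, the authors trimmed reads with cutadapt 1.15, removed pre-rRNA reads and aligned the rest to mm9 with Bowtie 1.2.3 (up to 2 mismatches, up to 10 positions of equal quality kept). Duplicate handling is not given in the sources used here. The deposited signal is the read number per 20-nt bin, averaged over the bins of wider peaks and not scaled to depth, which the authors called with Piranha in each library on its own. The deposited p-value is Piranha's within the library at a threshold of 0.001, which the methods state for ASCs. Which position of a read was counted in the bins is not given in the sources used here. Since Bowtie kept up to 10 positions, a read may count at several peaks.

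Here, peaks of both C2C12 replicates were joined when they shared at least 1 nt on the same strand. A centre was assigned with GENCODE vM1 (mm9) to CDS first, then 3'UTR, then 5'UTR, on the strand opposite to the reads. The members and gene lists were chosen with earlier results of these data known. Genes named are the 10 highest peaks, the 10 genes with most peaks and the genes of the lists. Some genes that this rule names are not reported here. Sequence words were counted in 60-nt windows (peak centre and 30 nt to each side) or in 30-nt windows, on the strand of the RNA. Shares carry 95% Clopper-Pearson intervals, which cover counting error over peaks and no spread between cultures. With 2 libraries, 1 condition and no control library there was no test between groups. Library depth is unknown. Scripts were tested on simulated data and used Python 3.11.15, numpy 2.4.6, pandas 2.3.3, scipy 1.17.1, pysam 0.24.0, samtools 1.23.1 and matplotlib 3.10.9. Alternatives were stricter p-values and read numbers, longer overlap, 1 transcript per gene, unique sequences, each replicate alone and genes of 1 strand.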

Additional observations from a re-analysis of the deposited data

Results flagged for a closer look

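In C2C12, 68 shared peaks lay in 5'UTRs in the orientation of the gene, opposite to the strand on which reads from its RNA fall. In that orientation they enter only the shares of orientation above. Some also lie in a 5'UTR on the other strand and are members there, such as the Rrnad1 peak, which is the Isg20l2 member. The 68 peaks lay in 26 genes, with a median of 8 reads per bin in replicate 1 (6 to 26) and 9 in replicate 2 (6 to 15). Of them, 51 lay in the interferon-like genes of chromosome 4, and the 20-nt sequence of 52 occurred more than 10 times in the genome, while 13 had a sequence found once. The part of multiple alignment in these peaks was not tested.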

How the results depend on the processing

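The lower density in 5'UTR than in CDS, the higher density than in the 3'UTR and the higher GC content than in both kept their direction under every alternative run for them. The number of members, 887, was 1834 to 1900 with 1 replicate alone, 133 with a Piranha p of at most 0.00001 in both, 150 with at least 10 reads per bin in both, and 547 and 340 in plus-strand and minus-strand genes. At that p in both replicates, the share of exonic peaks was 7.50%, the density ratio to CDS 0.763 and to 3'UTR 1.18. The share within 100 nt of the transcript start was then 39.1%, the GC excess over CDS 8.33 and over 3'UTR 11.7 percentage points, and the ratio of reads to CDS 1.02. With the p limit on replicate 1 alone, the share found again in replicate 2 was 76.2%. With 1 transcript per gene the share was 6.25%, the density ratios 0.883 and 1.33, and the read ratios 1.02 and 1.03. With sequences that occur once the share was 7.47%, the density ratios 0.735 and 1.19, the GC excesses 8.33 and 11.7 and the read ratio to CDS 1.02. In plus-strand genes the density ratios were 0.722 and 1.197, the share near the start 30.2% and the read ratio to 3'UTR 1.03. In minus-strand genes the share of exonic peaks was 6.46%, the density ratios 0.634 and 1.09, the share near the start 22.1%, the ASC-48h overlap 0% and the read ratios turned below 1, at 0.995 and 0.998. With 1 replicate alone the density ratio to CDS was 0.685 to 0.712, the GC excesses reached 8.33 and 11.7, and the read ratio to CDS was 0.997 to 1.00, so which region is higher in reads is not resolved. GGAC was at 8.35% of peaks without flanks and GGACT at 7.22% with them. Any ASC-48h library gave an overlap of 9.47%. The cause of these shifts was not tested. The strand splits and the p limit on the share found again were chosen after seeing the data. The lowest C2C12 peaks hold 6 reads per bin, so weaker binding cannot be seen. No paired analysis was possible because no test compares the groups, and the replicate numbers of C2C12 and ASC-48h name different cells.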
